A study of Mus musculus with 12 samples.

Results

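The cytochrome P450 family was examined in kidney cortex of mice with a HIF2α transgene and of wild-type mice. Members were the genes whose symbol is Cyp followed by a number, a letter and a number, as in Cyp4a10, with at least 10 reads summed over the 12 libraries. Of 27412 gene rows, 61 met this rule, in 31 subfamilies (genes sharing the number and the letter). Another 11 symbols of the same form stayed below 10 reads and 13 P450 rows carry other symbols, among them Cyp51, Cyp4a12a, Cyp4a12b and pseudogenes. Just inside the read minimum were Cyp2c55 (13 reads), Cyp4f40 (15 reads) and Cyp3a11 (18 reads). Just outside were Cyp2b23 (8 reads) and Cyp2c65 and Cyp2c67 (7 reads each).

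RNA came from thin slices of outer cortex of untreated male C57BL/6 mice, both kidneys of each of 6 animals. WT 1, WT 2 and WT 3 were wild type, and 17-51, 17-53 and 17-56 carried HIF2αM3, written HIF2aM3 here, under the promoter of γ-glutamyl transferase (GGT), which is active in the proximal tubule. HIF2α, the product of Epas1, is a transcription factor of the response to low oxygen. The labels give neither age nor the meaning of the prefix 17 that all 3 transgenic animals and no WT animal bear, so anything else the prefix stands for cannot be told apart from the transgene.

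P450 enzymes use haem iron, oxygen and electrons passed from a reductase to oxidise lipids, steroids, vitamins and foreign compounds. In the kidney they are concentrated in the proximal tubule, where families 2 and 4 make signalling lipids from arachidonic acid and hydroxylate fatty acids, and where CYP27B1 makes and CYP24A1 breaks down the active form of vitamin D. Many members lie in gene clusters that arose by duplication, so near-identical copies share sequence and reads.

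The stretch around the cysteine that holds the haem iron is what defines the family, and it shows how alike the members compared below are. It was searched for in the longest coding sequence of each gene of GENCODE M21 as phenylalanine, glycine, arginine, cysteine and glycine codons at the fixed spacing of the family signature. Of the 61 members, 55 hold it, against 92 of 21721 coding genes searched (0.424%). It was not found in Cyp20a1, Cyp2b10, Cyp2s1, Cyp39a1, Cyp7b1 and Cyp8b1. A variant of the signature, or one in a shorter coding sequence, would be missed, so this does not show that these members lack the cysteine. The sequences are 60 bases each, 5′ to 3′, with the 30 bases of the signature in capitals.
Cyp4a10: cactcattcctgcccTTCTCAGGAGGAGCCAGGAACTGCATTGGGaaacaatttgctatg
Cyp4a31: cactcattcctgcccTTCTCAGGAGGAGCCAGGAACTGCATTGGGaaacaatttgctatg
Cyp4a32: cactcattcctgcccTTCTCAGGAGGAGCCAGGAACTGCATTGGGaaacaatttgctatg
Cyp4a14: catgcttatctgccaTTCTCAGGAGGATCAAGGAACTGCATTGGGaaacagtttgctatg
Cyp2d9: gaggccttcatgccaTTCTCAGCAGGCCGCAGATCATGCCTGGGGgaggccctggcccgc
Cyp2d40: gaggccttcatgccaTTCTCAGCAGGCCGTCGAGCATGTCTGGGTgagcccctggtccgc
Cyp24a1: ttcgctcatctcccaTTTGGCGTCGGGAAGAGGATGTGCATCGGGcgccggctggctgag
Cyp27b1: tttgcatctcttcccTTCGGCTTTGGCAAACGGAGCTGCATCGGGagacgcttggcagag
Cyp4a10, Cyp4a31 and Cyp4a32 are identical over this stretch.

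Read totals per animal were 51309463, 65101936 and 66566563 for WT 1, 2 and 3 and 32392033, 85018818 and 56475079 for 17-51, 17-53 and 17-56. Kidney 2 of 17-51 was shallow with 4161829 reads, and the other libraries held 24032148 to 43499743. The P450 members took 0.863% of all reads. Epas1 itself was at 197, 238 and 177 CPM (read counts scaled to library size) in WT and at 278, 276 and 248 in HIF2aM3 animals. The log2 fold change was 0.39 ± 0.11 (SE) and missed the threshold, with an edgeR adjusted p of 0.0881. The sources used here do not say whether transgene reads count towards it.

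Of the 61 members, 50 had enough reads to be tested between genotypes, and 4 were lower in HIF2aM3 cortex while 0 were higher. The 4 were Cyp2d9, Cyp2d40, Cyp4a31 and Cyp2u1, each lower by between 0.50 and 0.66 on the log2 scale. A gene was called at a Benjamini-Hochberg adjusted p under 0.05 of edgeR's quasi-likelihood test on 3 animals against 3, reads of both kidneys being summed. The called share was 8% of the tested members, against 3.75% of all 19564 genes tested, and the share called lower was 8% against 1.82%. No member was called higher, where 1.93% of all genes were. At an unadjusted p under 0.05, 3 members were higher (Cyp24a1, Cyp1b1 and Cyp20a1) and 14 lower, together 34% of the tested members against 24.9% of all genes. DESeq2 called 14 members, 2 of them higher (Cyp1b1 and Cyp24a1) and 12 lower, where it called 10.8% of all genes and 5.61% as higher.

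The family as a whole sat near the middle of all genes. The median log2 fold change of the 50 tested members was -0.062, against 0.0049 over all genes tested, and 62% of members were negative against 49.1% of all genes. Summed CPM of the 61 members was 8310 to 9074 in WT and 8147 to 9042 in HIF2aM3 animals, ranges that overlapped almost entirely. The 3 animals of one genotype lay entirely above or below the other 3 for 17 of the tested members (34%), close to the 32% of all genes, so that share is no result about the family. Of the tested members, 7 had a log2 fold change of at least 1 in size, and 0 of these passed the threshold, since their values spread widely between animals of a genotype. At an unadjusted p under 0.05, 6 of the 7 passed, and DESeq2 called 6. They are described one by one below.

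**Figure D1:**
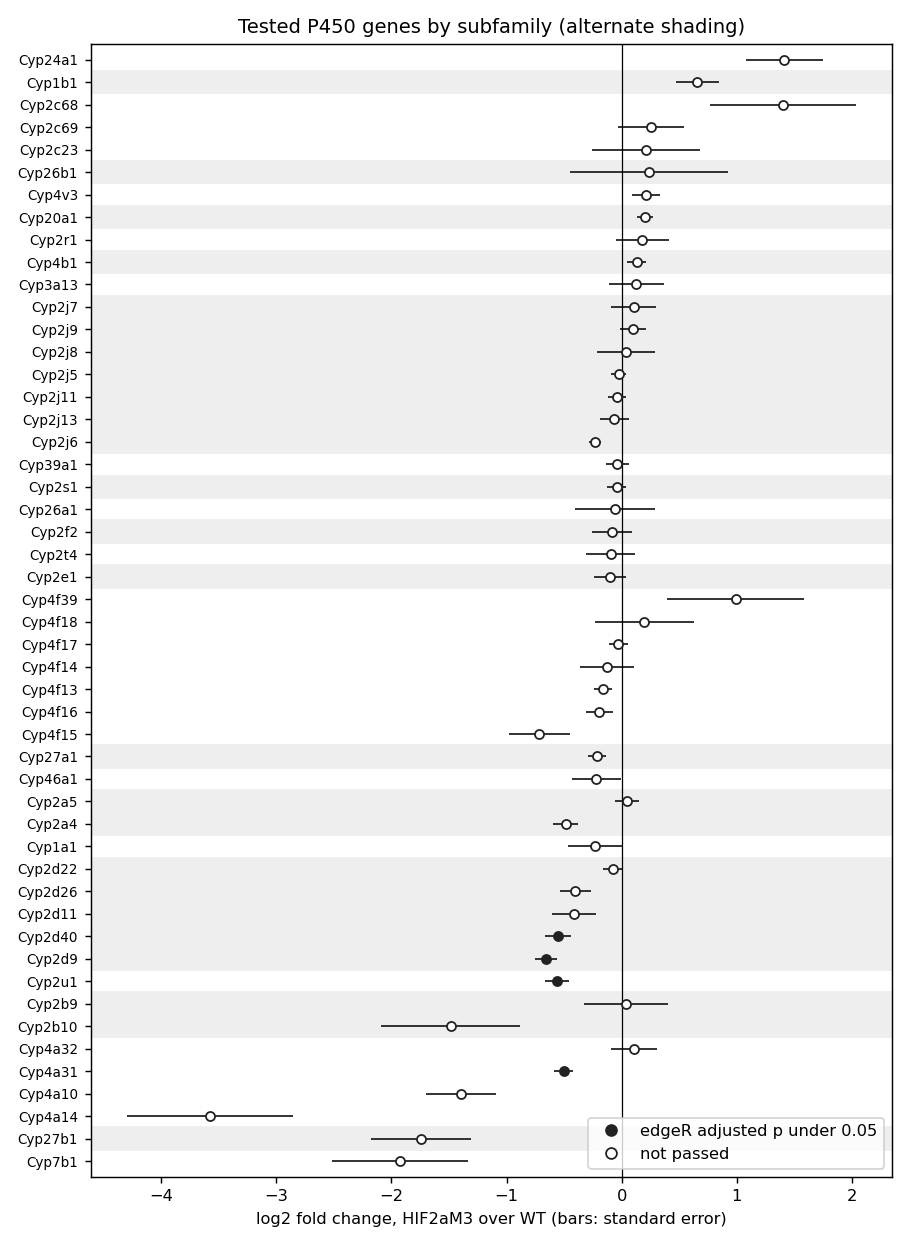
Log2 fold change (HIF2aM3 over WT, horizontal axis) of the 50 tested P450 genes grouped by subfamily, with subfamilies ordered by their median; bars are standard errors and filled points passed an edgeR adjusted p under 0.05. The 4 filled points lie between -0.66 and -0.50, and the points farthest from 0, such as Cyp4a14 at -3.58, are open.

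Levels between genes were compared on the deposited RPKM, a read count scaled to transcript length and library size and averaged over the kidneys of an animal. Cyp2j5, which makes epoxides of arachidonic acid, led with 587 ± 2.78 RPKM (SD, n = 3) in WT. Cyp2e1, which oxidises ethanol and small solvents, was at 585 ± 9.15 RPKM, within the spread of Cyp2j5. Cyp4b1, a family 4 enzyme that acts on fatty acids and some xenobiotics, came next at 382 ± 37.4 RPKM. Only these 3 reached 100 RPKM, and together they held 76.3% of the members' CPM in WT. Below them, 15 members in all reached 10 RPKM in WT, 31 reached 1 RPKM and 30 were under 1 RPKM.

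None of the leading 3 passed the test. Cyp2j5 was at 1565, 1487 and 1569 CPM in WT and 1554, 1464 and 1518 CPM in HIF2aM3 animals (log2 fold change -0.027 ± 0.066, edgeR adjusted p = 0.837). Cyp2e1 was at 2222, 2119 and 2173 CPM in WT and 1790, 1759 and 2511 in HIF2aM3 animals, with 17-56 above every WT animal and both others below (log2 fold change -0.10 ± 0.14, edgeR adjusted p = 0.683). For Cyp4b1 the HIF2aM3 animals, at 3278, 3233 and 3232 CPM, all lay above the WT animals at 3139, 3080 and 2690 CPM, by a small margin (0.13 ± 0.083, edgeR adjusted p = 0.369). A p above the threshold does not show that the levels were equal.

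**Figure D2:**
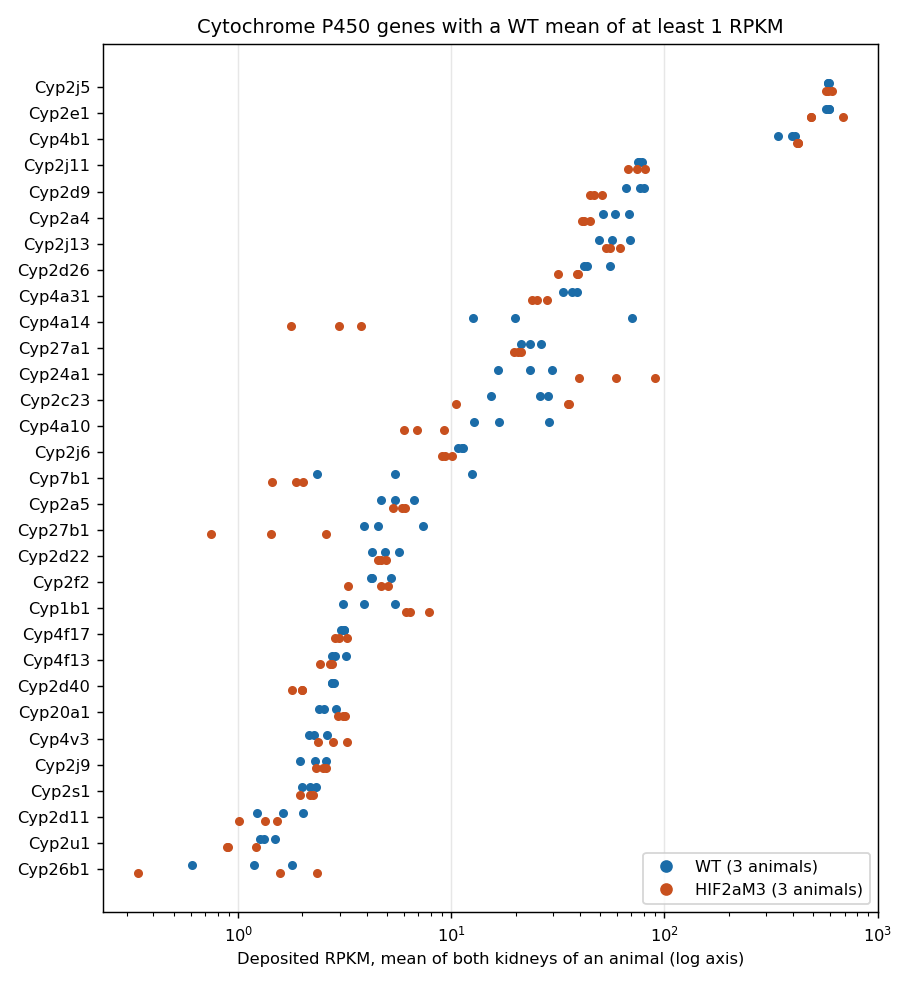
Deposited RPKM (log axis, mean of both kidneys) in each animal for the 31 P450 genes with a WT mean of at least 1 RPKM, ordered by the WT mean; blue points are WT and orange points HIF2aM3 animals, 3 each. Cyp2j5, Cyp2e1 and Cyp4b1 stand apart at the top, and the genotypes lie apart for Cyp4a14, Cyp7b1, Cyp27b1, Cyp24a1 and Cyp4a10, among others.

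The Cyp4a subfamily, whose enzymes hydroxylate the end of fatty acid chains and are textbook targets of the lipid sensor PPARα, held the log2 fold change farthest from 0 among the tested members, that of Cyp4a14. Summed CPM of its 4 members was 364 to 656 in WT and 200 to 255 in HIF2aM3 animals, without overlap. Cyp4a31 passed the test, and Cyp4a14 and Cyp4a10 were lower by more but varied more. The median log2 fold change of the 4 was -0.95, with 3 negative and 1 called.

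Cyp4a31 was at 209, 232 and 231 CPM in WT 1, 2 and 3 and at 176, 152 and 146 CPM in 17-51, 17-53 and 17-56. Every HIF2aM3 animal lay below every WT animal, and the log2 fold change was -0.50 ± 0.084 (SE, edgeR adjusted p = 0.0286). The call was lost without kidney 1 of 17-56 (-0.58, edgeR adjusted p = 0.0645).

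Cyp4a14 was at 67.7, 231 and 42.5 CPM in WT and at 13.6, 5.83 and 9.95 CPM in HIF2aM3 animals. WT 2 stood far above the other WT animals, and even the lowest WT animal was above every HIF2aM3 animal. The log2 fold change was -3.58 ± 0.72 (edgeR adjusted p = 0.0505), just missing the threshold, and without WT 2 it was -2.54 with an adjusted p of 0.0355.

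Cyp4a10 was at 117, 193 and 89.6 CPM in WT and at 64.1, 40.5 and 47.8 CPM in HIF2aM3 animals, again with WT 2 the highest and no overlap (-1.39 ± 0.31, edgeR adjusted p = 0.0599). Cyp4a32, nearly the same gene in sequence, was low, at 1.92, 1.56 and 1.29 CPM in WT and 2.03, 1.48 and 1.65 CPM in HIF2aM3 animals, which overlapped (0.10 ± 0.20, edgeR adjusted p = 0.788). Its sign turned with the kidney: from kidney 1 alone it was -0.090.

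The 4 genes and Cyp4b1 follow one another directly on mouse chromosome 4 in GENCODE M21, in the order Cyp4a14, Cyp4a10, Cyp4a31, Cyp4a32 and Cyp4b1. Along this order the log2 fold change went from -3.58 through -1.39, -0.50 and 0.10 to 0.13. Cyp4a10 and Cyp4a32 have 97.2% identical coding bases, Cyp4a10 and Cyp4a31 96.6%, and Cyp4a14 only 75.7% to 76.6% with the 3 others. Of all stretches of 50 transcript bases, 43.8% in Cyp4a32, 29.8% in Cyp4a10 and 20.6% in Cyp4a31 also occur in another gene, against 0.2% in Cyp4a14. The sources used here do not say how the authors' counting shared out such reads, so the split between Cyp4a10, Cyp4a31 and Cyp4a32 is uncertain, and that of Cyp4a14 hardly depends on it.

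Upstream in the same cluster lie Cyp4a12a and Cyp4a12b, outside the symbol rule and named after their values were seen. The stepwise order from Cyp4a14 to Cyp4b1 did not extend to them. Cyp4a12b was at 27.8, 25.1 and 21.8 CPM in WT and 13.7, 12.6 and 15.9 CPM in HIF2aM3 animals (log2 fold change -0.83 ± 0.12, edgeR adjusted p = 0.0211). Cyp4a12a was at 117, 99.9 and 89.1 CPM against 68.4, 80.0 and 148 CPM, with 17-56 above all WT animals (-0.040 ± 0.29, edgeR adjusted p = 0.951). Their coding bases are 98.5% identical and 48.9% and 49.4% of their 50-base stretches are shared, so how reads were split between these 2 genes is also uncertain.

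The Cyp2d subfamily, whose enzymes metabolise drugs and steroids, held 2 of the 4 calls, among 5 members. All 5 were negative, except that Cyp2d22 was at 0.0024 without WT 2. The median was -0.42, and the summed CPM was 237 to 284 in WT and 178 to 199 in HIF2aM3 animals. Cyp2d9, a steroid hydroxylase long known for higher expression in male mouse liver, was at 143, 118 and 150 CPM in WT and 93.9, 84.5 and 82.8 CPM in HIF2aM3 animals. The animals did not overlap, and the log2 fold change was -0.66 ± 0.097 (edgeR adjusted p = 0.0235), a call kept in each of the 12 fits without 1 library.

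Cyp2d40 was lower than Cyp2d9 in level, with 2.77 against 74.4 RPKM in WT. It was at 3.66, 3.45 and 3.63 CPM in WT and 2.62, 2.24 and 2.50 CPM in HIF2aM3 animals, also without overlap (-0.55 ± 0.11, edgeR adjusted p = 0.0432). Its call was kept in 5 of the 12 fits without 1 library. The fit without the shallow library gave -0.54 (edgeR adjusted p = 0.053).

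Cyp2d26 was at 103, 74.5 and 81.7 CPM in WT and at 69.3, 56.8 and 70.0 CPM in HIF2aM3 animals. These did not overlap but did not pass (-0.40 ± 0.13, edgeR adjusted p = 0.13). Cyp2d11 overlapped between genotypes (-0.42 ± 0.19, edgeR adjusted p = 0.229), and Cyp2d22 was nearly level at 30.3 ± 3.56 CPM in WT and 28.7 ± 0.807 CPM in HIF2aM3 animals (SD, n = 3). Cyp2d9 and Cyp2d11 have 93.3% identical coding bases. The share of 50-base stretches found in another gene was 21.8% for Cyp2d9 and 14.5% for Cyp2d40, and Cyp2d9 shares 186 exon bases on its own strand with the gene model Gm46501.

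The called Cyp2d pair, Cyp2d9 and Cyp2d40, lies in one cluster on chromosome 15 and was lower by a like amount. Their promoter windows and that of Cyp2d11 are therefore shown. They are RefSeq sequences of GRCm38.p6 around the start of each gene, at chr15:82452127-82452426 on the plus strand for Cyp2d9, chr15:82764073-82764372 on the minus strand for Cyp2d40 and chr15:82393973-82394272 on the minus strand for Cyp2d11. Capitals mark runs of at least 12 bases that Cyp2d9 shares with Cyp2d40, and in the lines of Cyp2d40 and Cyp2d11 those shared with Cyp2d9.
Cyp2d9: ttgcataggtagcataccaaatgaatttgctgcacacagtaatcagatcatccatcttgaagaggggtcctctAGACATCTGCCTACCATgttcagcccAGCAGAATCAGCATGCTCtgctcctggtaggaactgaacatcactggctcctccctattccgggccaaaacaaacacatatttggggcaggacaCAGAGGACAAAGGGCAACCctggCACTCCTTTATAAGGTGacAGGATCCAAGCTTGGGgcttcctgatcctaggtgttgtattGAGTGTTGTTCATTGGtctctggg
Cyp2d40: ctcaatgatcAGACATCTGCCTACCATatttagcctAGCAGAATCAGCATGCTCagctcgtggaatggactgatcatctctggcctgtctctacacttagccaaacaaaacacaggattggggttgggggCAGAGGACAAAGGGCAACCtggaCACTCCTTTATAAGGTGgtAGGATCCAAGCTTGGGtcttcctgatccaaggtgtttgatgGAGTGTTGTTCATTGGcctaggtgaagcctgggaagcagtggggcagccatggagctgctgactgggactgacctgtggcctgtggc
Cyp2d11: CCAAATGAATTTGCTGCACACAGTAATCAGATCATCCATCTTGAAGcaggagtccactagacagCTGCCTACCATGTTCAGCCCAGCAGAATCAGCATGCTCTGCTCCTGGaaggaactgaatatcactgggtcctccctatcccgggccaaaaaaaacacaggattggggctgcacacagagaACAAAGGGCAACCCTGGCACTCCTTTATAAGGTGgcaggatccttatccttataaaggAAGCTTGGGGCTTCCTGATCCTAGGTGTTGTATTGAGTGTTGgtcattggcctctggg
Runs of this length cover 103 bases between Cyp2d9 and Cyp2d40 and 169 bases between Cyp2d9 and Cyp2d11, and 0 bases between Cyp2d9 and Cyp2d26. Of the 300 bases of the window, Cyp2d9 is 62.3% identical to Cyp2d40, 89.0% to Cyp2d11 and 57.0% to Cyp2d26. Bases left unaligned count against these shares. Of the aligned bases, 187 of 231 were identical with Cyp2d40, 267 of 284 with Cyp2d11 and 171 of 262 with Cyp2d26.

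Promoter windows were found for 48 members. None was found for the called genes Cyp4a31 and Cyp2u1, nor for Cyp4a14, Cyp4a10, Cyp24a1 and Cyp7b1, so the search did not cover them. The hypoxia response element has the core ACGTG or GCGTG, and the second is also the core of the element bound by the xenobiotic receptor AHR. On either strand, ACGTG occurs in 6 of these 48 windows and in 19.7% of all 27025 promoters in the table. The other core, GCGTG, occurs in 14 of the 48 and in 32.5% of all promoters. Neither string is in the windows of Cyp2d9, Cyp2d40, Cyp2d11 or Cyp27b1, which says only that these letters are not there. The first string lies in the windows of Cyp26a1, Cyp2e1, Cyp2j6, Cyp46a1, Cyp4v3 and Cyp8b1. The second lies in those of Cyp1a1, Cyp1b1, Cyp20a1, Cyp2b10, Cyp2c68, Cyp2j9, Cyp2j12, Cyp2j13, Cyp2r1, Cyp46a1, Cyp4f14, Cyp4f16, Cyp4f39 and Cyp4v3. Neither string was more frequent in the member windows than in all promoters. The core-promoter string TATAAA, on either strand, occurs in 18 of the 48 windows, those of Cyp2d9, Cyp2d40, Cyp2d11 and Cyp2d26 included, and in 14.2% of all promoters.

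**Figure D3:**
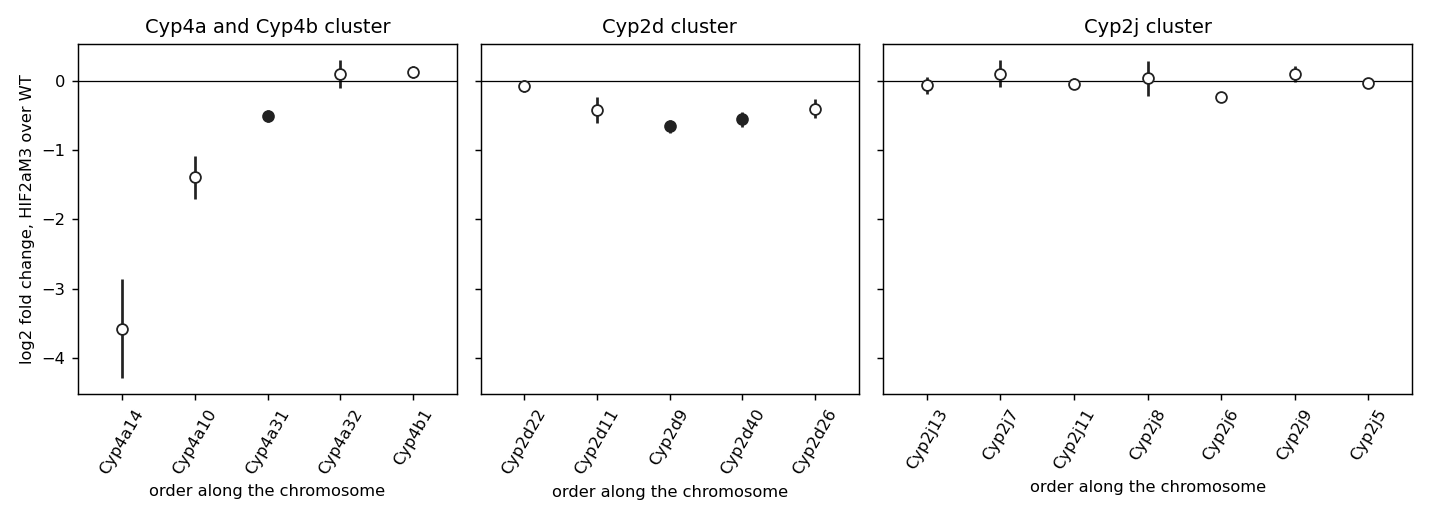
Log2 fold change (HIF2aM3 over WT, vertical axis, bars are standard errors) of the tested members of 3 clusters in their order along the chromosome; filled points passed an edgeR adjusted p under 0.05. Cyp4a12a and Cyp4a12b, upstream of Cyp4a14, are not members and are not shown. Values step from -3.58 at Cyp4a14 to 0.13 at Cyp4b1 in the first cluster, reach -0.66 at Cyp2d9 in the second and stay between -0.23 and 0.10 in the Cyp2j cluster.

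Cyp2u1, which hydroxylates long-chain fatty acids, was the fourth gene called. It was at 6.47, 7.26 and 6.78 CPM in WT and 5.17, 4.45 and 4.36 CPM in HIF2aM3 animals, all HIF2aM3 animals below all WT animals (-0.56 ± 0.10, edgeR adjusted p = 0.0344). The call was lost without kidney 2 of WT 1 (edgeR adjusted p = 0.0501) and without kidney 1 of 17-51 (0.0746), whose other kidney is the shallow library with 6.84 CPM. Cyp2u1 shares 548 exon bases with the antisense gene 4930534D22Rik, and the sources used here do not say whether counting used strand. Without strand, reads that lie within these shared bases cannot be assigned to either gene. Of the 50-base stretches of Cyp2u1, 9.5% occur in 4930534D22Rik.

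The 4 calls depended on which animals entered the fit. Without any 1 of WT 1, WT 3, 17-51, 17-53 and 17-56, edgeR called 0 members, although 13 to 18 members kept an unadjusted p under 0.05. Without WT 2 it called 8, these 4 among them, with edgeR adjusted p of 0.00731 for Cyp2d9, 0.0303 for Cyp4a31, 0.0365 for Cyp2u1 and 0.0397 for Cyp2d40. The number of all genes called moved in step, from 733 to between 11 and 196 in those 5 fits and to 1549 without WT 2. In the 6 fits the log2 fold change of Cyp2d9 ran from -0.76 to -0.59, of Cyp4a31 from -0.59 to -0.45, of Cyp2u1 from -0.64 to -0.52 and of Cyp2d40 from -0.61 to -0.49.

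**Figure D4:**
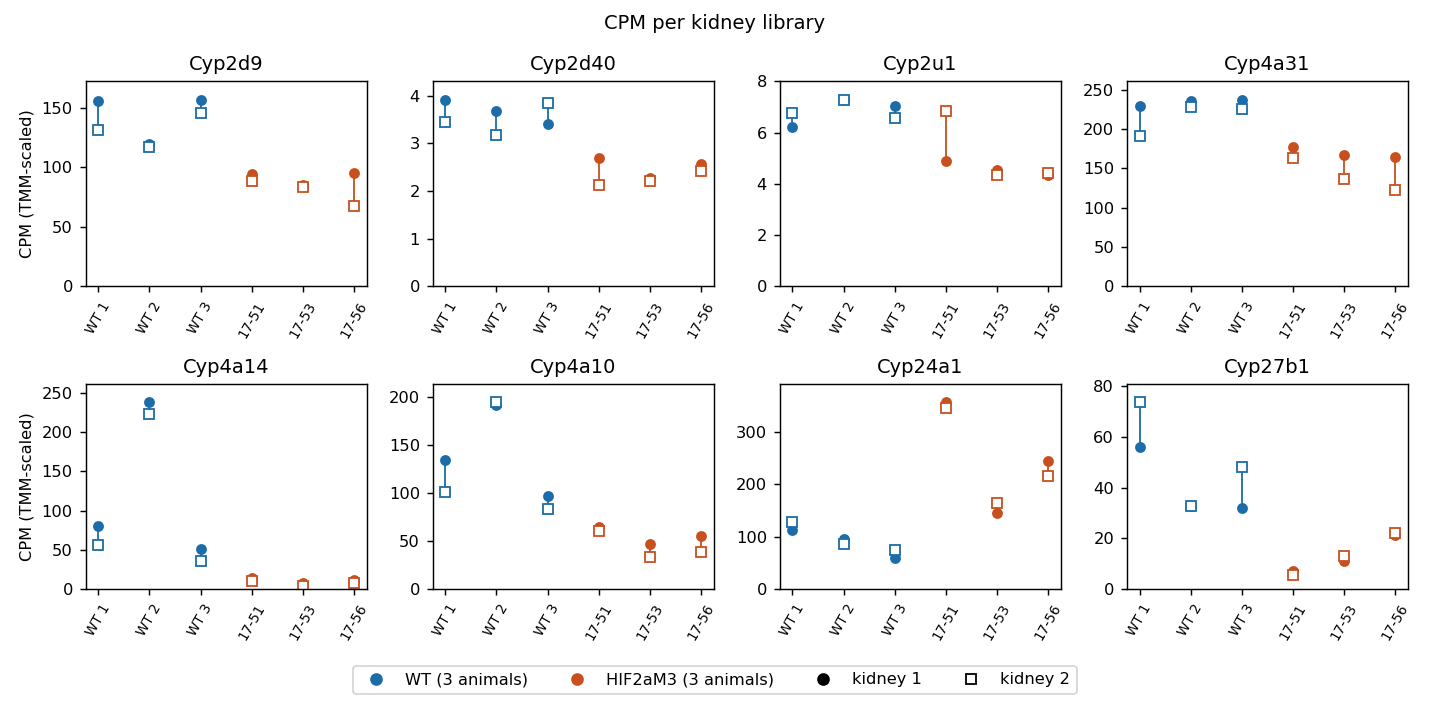
CPM in each of the 12 kidney libraries (vertical axes from 0) for 8 P450 genes, with animals along the horizontal axis, kidney 1 filled, kidney 2 open and the kidneys of an animal joined by a line. For Cyp24a1 the kidneys of an animal lie close together while HIF2aM3 animals differ. For Cyp4a14 both kidneys of WT 2 stand above all other libraries. Kidney 2 of 17-51 stands above the other HIF2aM3 libraries for Cyp2u1.

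The vitamin D enzymes moved apart, but neither passed the threshold. Cyp24a1, which inactivates the hormone, was at 120, 90.7 and 67.5 CPM in WT and at 355, 154 and 232 CPM in 17-51, 17-53 and 17-56. Every HIF2aM3 animal was above every WT animal, and the log2 fold change of 1.41 ± 0.34 had an edgeR adjusted p of 0.0692. Cyp27b1, which makes the hormone, was at 64.7, 32.5 and 40.6 CPM in WT and 6.77, 12.03 and 21.7 CPM in HIF2aM3 animals, all lower (-1.74 ± 0.43, edgeR adjusted p = 0.0753). DESeq2 called both.

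Both genes share little transcript sequence with others: 1.0% and 0% of their 50-base stretches occur elsewhere. Cyp24a1 shares 83 exon bases with Pfdn4 on the opposite strand, and whether counting used strand is not known. The ratio of Cyp24a1 to Cyp27b1 CPM within an animal was 1.85, 2.79 and 1.66 in WT and 52.5, 12.8 and 10.7 in HIF2aM3 animals. The lowest ratio with the transgene was thus above the highest without it. No test is given for the ratio, since neither genotype overlapped the other in either gene.

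The enzymes upstream of this step differed less. Cyp2r1, a liver-type enzyme that adds the first hydroxyl group to vitamin D, was at 1.69 ± 0.551 CPM in WT and 1.91 ± 0.169 CPM in HIF2aM3 animals (SD, n = 3), at 0.18 on the log2 scale, with an SE of 0.23. Cyp27a1, which acts on both vitamin D and sterols, was at 45.3, 54.2 and 50.6 CPM in WT and 46.3, 42.3 and 40.9 CPM in HIF2aM3 animals and overlapped (-0.22 ± 0.079, edgeR adjusted p = 0.149).

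Around them, 16 genes of vitamin D and mineral handling were tested, and 1 was lower and 0 were higher. The lower one was Pth1r, the receptor of parathyroid hormone, at 596 ± 16.6 CPM in WT and 470 ± 29.5 CPM in HIF2aM3 animals (SD, n = 3; -0.34 ± 0.069, edgeR adjusted p = 0.0431). At an unadjusted p under 0.05, 1 was higher and 3 were lower, and DESeq2 called 1 higher and 2 lower. The shares over all genes tested were 3.75% with edgeR, 24.9% at an unadjusted p under 0.05 and 10.8% with DESeq2. The unadjusted count of this list was close to that share. Vdr, the receptor of active vitamin D, was at 384 ± 95.0 and 394 ± 34.2 CPM (0.034 ± 0.17, edgeR adjusted p = 0.925).

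Among enzymes of bile acid and oxysterol metabolism, all 4 tested members were negative and 0 passed edgeR. At an unadjusted p under 0.05 there were 2, and DESeq2 called 1. For all genes tested these shares were 24.9% and 10.8%, and 3.75% passed edgeR. Cyp7b1, which hydroxylates oxysterols and some steroids, was at 13.4, 5.43 and 30.1 CPM in WT and 3.29, 4.83 and 4.53 CPM in HIF2aM3 animals. The WT animals differed widely among themselves, yet none reached down to the HIF2aM3 range (-1.93 ± 0.59, edgeR adjusted p = 0.114). Without WT 2 it was called, at -2.35 (edgeR adjusted p = 0.0349). Cyp39a1, an oxysterol hydroxylase, was at -0.037 ± 0.10 and Cyp46a1, which hydroxylates cholesterol in brain, at -0.22 ± 0.22, with 7.44 ± 0.727 and 1.28 ± 0.0803 CPM in WT.

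The arachidonate epoxygenase subfamilies Cyp2j and Cyp2c held 10 tested members, of which edgeR called 0, 1 had an unadjusted p under 0.05 and DESeq2 called 1. Among all genes tested, the shares were 3.75%, 24.9% and 10.8% in this order. The Cyp2j cluster was among the most abundant in the cortex, with 2220 to 2437 summed CPM in WT and 2180 to 2279 in HIF2aM3 animals, and its 7 tested members ran from -0.23 to 0.10. Cyp2j6 was at 43.9, 44.2 and 46.1 CPM in WT and at 38.2, 39.5 and 36.7 CPM in HIF2aM3 animals. This small difference was even across animals and just missed the threshold (-0.23 ± 0.051, edgeR adjusted p = 0.0528). Cyp2j11 was at 164 ± 0.55 and 159 ± 16.5 CPM, and Cyp2j13 at 540 ± 93.9 and 516 ± 40.1 CPM.

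Cyp2c23, the leading member of its subfamily in the cortex and an arachidonate epoxygenase, was at 57.7, 60.8 and 34.3 CPM in WT and 78.5, 76.1 and 22.6 CPM in HIF2aM3 animals. The HIF2aM3 animals held both the highest and the lowest values, and the difference had a large error (0.21 ± 0.47, edgeR adjusted p = 0.818). The other Cyp2c members were nearly silent: Cyp2c68 had 78 reads and Cyp2c69 had 134 reads over all libraries, and 43.3% and 54.3% of their 50-base stretches are shared. Cyp2c68 was at 0.0396, 0.180 and 0.124 CPM in WT and 0.462, 0.408 and 0.105 CPM in HIF2aM3 animals, 17-56 lying within the WT range (1.40 ± 0.63, edgeR adjusted p = 0.223). The 15 tested partner enzymes of eicosanoid metabolism gave 0 calls with edgeR, 6 with an unadjusted p under 0.05 and 3 with DESeq2. Among all genes tested, the shares were 3.75%, 24.9% and 10.8% in this order. The smallest p was that of Alox15, a lipoxygenase, at 0.255 ± 0.156 CPM in WT and 1.03 ± 0.618 CPM in HIF2aM3 animals (2.01 ± 0.57, edgeR adjusted p = 0.0907).

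Outside Cyp4a, family 4 held no call. Cyp4f members, which inactivate leukotrienes and hydroxylate fatty acids, ran from -0.71 to 0.99 over 7 tested genes, with a median of -0.13. Both ends were genes of low level whose genotypes did not overlap. Cyp4f15 was at 1.33 ± 0.182 and 0.810 ± 0.260 CPM in WT and HIF2aM3 animals (-0.71 ± 0.27, edgeR adjusted p = 0.154). Cyp4f39 had 53 reads over all libraries (0.99 ± 0.59, edgeR adjusted p = 0.339). Cyp4f17, at 3.10 ± 0.0603 RPKM in WT (SD, n = 3), and Cyp4f13, at 2.93 ± 0.238 RPKM, led, and their WT levels overlapped. The log2 fold change was -0.029 ± 0.086 for Cyp4f17 and -0.16 ± 0.080 for Cyp4f13 (edgeR adjusted p = 0.254). Cyp4v3, a fatty acid hydroxylase, was at 0.21 ± 0.12 (edgeR adjusted p = 0.32).

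Apart from Cyp2c, Cyp2j, Cyp2r and Cyp2u, members of families 1 to 3 were grouped as known mostly for foreign compounds. Of this group, 16 were tested and 2 were called, both in Cyp2d. At an unadjusted p under 0.05, 1 was higher and 5 were lower, and DESeq2 called 1 higher and 5 lower. Over all genes tested, edgeR called 3.75%, DESeq2 called 10.8% and 24.9% had an unadjusted p under 0.05. Cyp2u1, also a called gene of family 2, is described above. Cyp2a4, a steroid hydroxylase, was at 100, 109 and 133 CPM in WT and 86.5, 77.5 and 79.7 CPM in HIF2aM3 animals, without overlap (-0.49 ± 0.10, edgeR adjusted p = 0.0512). Its neighbour in sequence Cyp2a5, with 98.4% identical coding bases, was at 29.8 ± 4.63 and 30.8 ± 1.09 CPM (0.045 ± 0.11). As 38.8% and 37.0% of their 50-base stretches are shared, the split between them is uncertain. Cyp2b10, a target of the receptor CAR (Nr1i3), was low and uneven at 3.29, 0.765 and 1.52 CPM in WT and 0.461, 0.419 and 1.07 CPM in HIF2aM3 animals (-1.49 ± 0.60, edgeR adjusted p = 0.188).

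Cyp1b1, an AHR target found in vessel and mesenchymal cells that oxidises oestrogens, was at 29.7, 49.4 and 37.6 CPM in WT and at 56.0, 57.0 and 71.3 CPM in HIF2aM3 animals. It was higher in each HIF2aM3 animal (0.66 ± 0.19, edgeR adjusted p = 0.0967), and without WT 2 it was called at 0.86 (edgeR adjusted p = 0.0298). Cyp1a1, the classical AHR target, was near the floor at 0.825 ± 0.182 and 0.695 ± 0.092 CPM (-0.24 ± 0.23, edgeR adjusted p = 0.573). The 5 tested AHR target genes gave 0 calls with edgeR or DESeq2 and 2 at an unadjusted p under 0.05, the smallest p being that of Nqo1, a quinone reductase (0.22 ± 0.081, edgeR adjusted p = 0.157). All genes tested gave 3.75% with edgeR, 10.8% with DESeq2 and 24.9% at an unadjusted p under 0.05.

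The remaining tested members of this group differed little. Cyp2f2, a lung-type enzyme for aromatic compounds, was at 13.1 ± 1.84 and 12.4 ± 2.80 CPM in WT and HIF2aM3 animals (SD, n = 3). Cyp2s1 was at 22.2 ± 1.24 and 21.5 ± 1.97 CPM, Cyp2t4 at 0.609 ± 0.0746 and 0.565 ± 0.0703 CPM and Cyp3a13 at 0.487 ± 0.101 and 0.532 ± 0.0458 CPM. The retinoic acid enzymes overlapped widely: Cyp26b1 was at 17.5, 5.56 and 11.7 CPM in WT and 2.74, 22.1 and 14.8 CPM in HIF2aM3 animals, and Cyp26a1 stayed under 1 CPM in all. Cyp20a1, an orphan without a settled substrate, was at 14.9, 16.4 and 14.2 CPM in WT and 17.9, 17.7 and 16.8 CPM in HIF2aM3 animals (0.20 ± 0.073, edgeR adjusted p = 0.144).

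The 11 members without enough reads for a test were summed over all 12 libraries. Cyp2c38 had 66 reads, Cyp4f37 had 42, Cyp8b1 had 39, Cyp26c1, Cyp2c29 and Cyp2j12 had 36 each, Cyp17a1 had 35, Cyp4x1 had 21, Cyp3a11 had 18, Cyp4f40 had 15 and Cyp2c55 had 13. Several of these are liver or adrenal enzymes, such as Cyp3a11, Cyp8b1 and Cyp17a1.

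Genes that serve or regulate P450 enzymes were examined as lists. Beside them, edgeR called 1.93% of all genes tested higher and 1.82% lower. DESeq2 called 10.8% of all genes, and 24.9% had an unadjusted p under 0.05. Of 10 tested genes of electron supply, edgeR and DESeq2 called 0 and 4 had an unadjusted p under 0.05, the smallest being that of Cyb5r1, a cytochrome b5 reductase (-0.21 ± 0.059, edgeR adjusted p = 0.0883). Of 15 genes of haem synthesis and breakdown, 1 was lower, the synthesis enzyme Uros, at 24.3 ± 1.29 CPM in WT and 19.9 ± 0.373 CPM in HIF2aM3 animals (-0.28 ± 0.060, edgeR adjusted p = 0.0482). Of 26 tested regulators, 2 were higher and 1 was lower. Pparg, a fat-cell regulator related to PPARα, rose from 1.01 ± 0.214 to 3.75 ± 0.374 CPM (1.89 ± 0.18, edgeR adjusted p = 0.00911). Nr3c1, the glucocorticoid receptor, rose by 0.49 ± 0.072 (edgeR adjusted p = 0.0234) and Nr1h3, the oxysterol sensor LXRα, fell by 0.48 ± 0.071 (edgeR adjusted p = 0.0235).

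PPARα target genes outside the P450 family were lower in 4 of 17 and higher in 0 of 17, with a median log2 fold change of -0.40 against 0.0049 over all genes tested. DESeq2 called 7 lower and 0 higher, and at an unadjusted p under 0.05 there were 9 lower and 0 higher. Of all genes tested, edgeR called 1.82% lower, 12.8% were lower at an unadjusted p under 0.05, and DESeq2 called 10.8% in either direction. Hadha, an enzyme of mitochondrial fatty acid oxidation, fell by 0.40 ± 0.057 (edgeR adjusted p = 0.0226). Vnn1, a pantetheinase, fell by 0.66 ± 0.11 (edgeR adjusted p = 0.0279), and Slc25a20, the carnitine carrier, by 0.42 ± 0.069 (edgeR adjusted p = 0.0281). Ppara itself was at 78.4 ± 17.2 and 67.1 ± 12.4 CPM (-0.23 ± 0.18, edgeR adjusted p = 0.481). Of the listed genes Ptgis, Tbxas1 and Cyp51, 1 was called, the thromboxane synthase Tbxas1, which rose by 0.42 ± 0.090 (edgeR adjusted p = 0.0484). The 4 tested flavin monooxygenases gave 0 calls with either tool and 0 at an unadjusted p under 0.05. The smallest p among them was that of Fmo1 (-0.18 ± 0.098, edgeR adjusted p = 0.294).

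Marker genes of cell types in the cortex were read beside these results. Over all genes tested, edgeR called 3.75%, DESeq2 called 10.8% and 24.9% had an unadjusted p under 0.05. Proximal tubule markers gave 1 higher and 1 lower of 9 for the first segments (summed CPM 13375 to 14894 in WT and 12360 to 13721 in HIF2aM3 animals) and 0 of 8 for the last segment (3810 to 4887 and 4234 to 4405), where DESeq2 also called 0 and 0 had an unadjusted p under 0.05. For the first segments, DESeq2 and an unadjusted p under 0.05 each gave 2 higher and 1 lower. Collecting duct markers were lower in 5 of 8 (596 to 645 against 369 to 448), and thick limb and distal tubule markers in 2 of 6 (4136 to 4919 against 3230 to 3660). DESeq2 and an unadjusted p under 0.05 each gave 7 lower and 0 higher in collecting duct. In thick limb and distal tubule each gave 3 lower and 0 higher. Endothelial markers were higher in 3 of 6 (206 to 288 against 347 to 357) and leukocyte markers in 1 of 6 (51.7 to 79.1 against 91.3 to 106). DESeq2 called 6 endothelial markers and 1 leukocyte marker higher. At an unadjusted p under 0.05, 6 and 2 were higher. The part of these shifts in the P450 results was not tested, and in bulk tissue fewer cells of a type and less RNA per cell cannot be told apart.

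Markers of other tissues that could carry P450 RNA into a slice were also read. Liver markers gave 1 lower of 9 (360 to 517 summed CPM in WT and 446 to 471 in HIF2aM3 animals). DESeq2 called 1 liver marker higher and 2 lower, and at an unadjusted p under 0.05 there were 1 higher and 3 lower. Apob alone was at 433 CPM in WT 1 and 276 CPM in WT 2. Adrenal markers gave 0 of 5 (12.2 to 12.7 and 11.02 to 12.8), with 0 by DESeq2 and 0 at an unadjusted p under 0.05. Glomerular markers gave 0 of 5 by both tools and at an unadjusted p under 0.05 (509 to 708 and 570 to 600). Fat markers, too low to be tested, summed to 5.32 CPM in WT 1, with Cidec at 2.39, Adipoq at 1.21 and Lep at 0.990 CPM, and no fat marker was above 0.0465 CPM in any other animal. Their part in the P450 results was not tested, and the fit without WT 1 is given above. Androgen-dependent kidney genes, which bear on male-biased members such as Cyp2d9, gave 0 of 6 with edgeR or DESeq2 and 1 higher at an unadjusted p under 0.05 (14732 to 20135 and 19796 to 21169). Most of this sum was Kap, and the animals with the transgene were uneven. Odc1, Gusb, Slco1a1 and Acsm3 were highest of all animals in 17-56, at 563, 89.6, 971 and 966 CPM. Kap and Slc7a13 were lowest in 17-56 among the HIF2aM3 animals. No marker gene in the table was at 0 reads over the 12 libraries.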

How the data were processed

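The data are RNA-seq of 12 kidney cortex libraries, made with TruSeq RNA reagents per the labels' protocols. The submitters' processing notes name mouse build mm9, and the sources used here give no aligner, counter, annotation release or strand setting. Raw read counts per gene are raw as deposited, per the file headers. RPKM values were deposited by the authors, with about 1 read added to each count as read from the values, and were used for levels between genes. Symbols came from GENCODE M21, another build, which named 24630 IDs and left 2782 unnamed, so no mm9 coordinates are given.

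Counts of both kidneys were summed per animal, the replicate, and tested over all genes with edgeR 4.0.16 under R 4.3.3 (quasi-likelihood F, filterByExpr, TMM, robust, two-sided, Benjamini-Hochberg threshold 0.05). An SE is the size of the log2 fold change divided by √F. CPM is scaled with TMM factors on the reads of tested genes. The p-values measure the spread of 3 animals per genotype. The fit was tested on simulated data with 200 changed genes. Those changes were larger than the changes of the called members and all genes had the same spread. The simulation therefore does not cover changes as small as those called, or genes that vary widely between animals. Alternatives were DESeq2 1.42.0, other scaling and filters, limma 3.58.1 on log2(RPKM + 1), single kidneys, 12 libraries as replicates, and left-out animals and libraries, the library leave-outs being chosen after seeing the data.

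The members and lists were chosen with earlier results of these data known. Named members are those past the threshold, the member with the highest WT RPKM of each tested subfamily, the vitamin D enzymes and the untested members. Of each list, up to 3 genes past the threshold by adjusted p are named, or the one with the smallest p. Cyp4a14, Cyp4a10, Cyp4a32, Cyp2a5, Cyp2j6, Cyp2j11, Cyp2j13, Cyp2d11, Cyp2d22, Cyp2d26, Cyp2c68, Cyp2c69, Cyp4f13, Vdr and Ppara, and the promoters and motifs shown, were named after their values were seen. So were Cyp4f15, Cyp4f39 and the single marker genes. Intervals of counting error are not given, as PCR reads are not independent molecules.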

Additional observations from a re-analysis of the deposited data

Results flagged for a closer look

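In 4 of 82 sets of 6 libraries examined (41 members in each genotype), 1 library stood far from the other 5, its gap to the nearest over the whole range being above Dixon's critical value. Chance flags about 1 in 20 such sets, and the kidneys of one animal are not independent. Cyp2u1 was at 6.84 CPM in kidney 2 of 17-51, the shallow library, against 4.33 to 4.91 CPM in the other HIF2aM3 libraries. Cyp2r1 was at 3.07 CPM in the same library, against 1.55 to 2.11 CPM in the others. Cyp4a31 was at 191 CPM in kidney 2 of WT 1, against 226 to 237 CPM in the other WT libraries. Cyp2j13 was at 603 CPM in kidney 1 of 17-56, against 485 to 513 CPM in the other HIF2aM3 libraries.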

How the results depend on the processing

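Of the results by setting, the number of all genes called was 2038 with DESeq2, 114 with limma on RPKM, 4829 with the 12 libraries as replicates (kidneys of an animal are not independent) and 337 from kidney 2 alone, against 733. The number of P450 genes called was 14, 2, 18 and 2 in these settings, against 4. Leaving out 1 animal gave 11 to 1549 genes and 0 to 8 P450 genes, and leaving out 1 library gave 479 to 1078 genes and 2 to 7 P450 genes. RLE factors, library size alone, no filter, a mean of at least 1 CPM, kidney 1 alone and the fit without the shallow library gave 625 to 1003 genes and 3 to 6 P450 genes. The scalings moved the median of all genes by less than 0.1. Cyp2d9 was called in 11 of 16 planned settings, Cyp4a31 in 10, Cyp2u1 in 9 and Cyp2d40 in 7, none changing sign. The cause was not tested.

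Of the 41 named members run, signs turned in the following, none of them called. From kidney 1 alone, Cyp26a1 was 0.0073, Cyp2f2 0.0054, Cyp2j5 0.010, Cyp3a13 -0.035 and Cyp4a32 -0.090. From kidney 2 alone Cyp26a1 was 0.038 and Cyp2a5 -0.033, and with limma on RPKM Cyp2j5 was 0.0039. Leaving out 1 animal or library gave ranges of -0.60 to 0.15 for Cyp26a1, -0.36 to 0.68 for Cyp26b1, -0.068 to 0.16 for Cyp2a5, -0.044 to 0.60 for Cyp2c23, -0.17 to 0.0024 for Cyp2d22, -0.22 to 0.086 for Cyp2f2, -0.13 to 0.024 for Cyp2j11, -0.17 to 0.075 for Cyp2j13, -0.079 to 0.0043 for Cyp2j5, -0.098 to 0.030 for Cyp2s1, -0.29 to 0.073 for Cyp2t4, -0.15 to 0.034 for Cyp39a1, -0.025 to 0.26 for Cyp3a13, -0.034 to 0.25 for Cyp4a32 and -0.076 to 0.0075 for Cyp4f17.

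No paired analysis was possible because the genotypes share no replicate numbers or animals. Depth limits the shallow library and members under 1 CPM, whose SE is large.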
